A study of Mus musculus with 12 samples.

Results

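The proteasome subunit genes are described here, chosen by symbol: every gene that begins with Psma, Psmb, Psmc, Psmd, Psme, Psmf or Psmg in the second deposited table, apart from Psmb8 and Psmb9. The rule gave 45 of 12380 genes, and all 45 passed the filter on low values. They comprise 14 genes of the core particle, 17 of the regulatory particle and 14 others (assembly chaperones, activators, an inhibitor and the inducible subunit Psmb10). RNA was sequenced from brown adipose tissue, the thermogenic fat, of male C57BL/6J Bom mice aged 12 weeks and housed at 30 °C. ERRαγAd-/- mice carried floxed alleles of ERRα and ERRγ, which are orphan nuclear receptors that activate mitochondrial genes, and a Cre transgene under the adiponectin promoter. The WT mice were littermates with the floxed alleles and no Cre. Each genotype received daily intraperitoneal injections for 10 days at zeitgeber time 4, either of CL316,243 (1 mg/kg), which activates β3-adrenergic receptors, or of PBS, and tissue was taken 24 hours after the last dose. Each of the 4 groups, named by genotype and injection, holds 3 libraries. The adiponectin promoter is active in adipocytes, so the other cells of the tissue keep both receptor genes. Whether each library is a separate mouse is not stated in the labels, and p-values measure the spread between these libraries, which may be technical.

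The proteasome degrades proteins tagged with ubiquitin. Its core particle is a barrel of stacked rings, in which alpha subunits form the gate and some of the beta subunits, encoded by Psmb5, Psmb6 and Psmb7, cut peptide bonds. The regulatory particle caps the barrel: its base holds the ATPases that unfold substrates, and its lid removes ubiquitin. Other caps, the activators encoded by Psme genes, open the gate without ATP. Proteasome genes are known to be activated together by NFE2L1 and NFE2L2, which bind antioxidant response elements, and NFE2L1 is known to support proteasome function during thermogenesis in brown fat.

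Depth lay between 8478310 and 9727167 recovered reads in WT PBS, 8979123 and 9559239 in WT CL316,243, 12822176 and 13263567 in ERRαγAd-/- PBS and 12468001 and 12954186 in ERRαγAd-/- CL316,243. In the deposited RPKM (reads per kilobase of gene, scaled by the authors to library size) the typical gene was 0.53 higher in ERRαγAd-/- than in WT on the log2 scale under PBS and 0.63 higher under CL316,243, and the shift with CL316,243 was -0.26 in WT and -0.16 in ERRαγAd-/- (0.09 for the difference of the CL316,243 effects). Libraries were therefore scaled by median-of-ratios, and every level below is scaled RPKM and every change is relative to the typical gene unless the deposited scale is named. WT PBS replicate 3 stood apart: it was the highest of its group for 41 of 45 members, against 41.9% of all genes, and the median member was 0.41 higher in it than in the mean of replicates 1 and 2 on the log2 scale, against 0.02 for all genes. In that library the median difference was 0.44 for genes under 1000 bases and -0.11 for genes of 3000 bases or more, so its results are also given without it. Esrra, which encodes ERRα, had levels of 41.7 to 83.2 in WT and 5.26 to 8.90 in ERRαγAd-/-, without overlap. Esrrg, which encodes ERRγ, had 4.41 to 8.27 in WT and 2.3 to 8.13 in ERRαγAd-/-, with overlapping groups, so its level does not separate the labels. All 6 brown adipocyte markers were detected in every group, and the thermogenic uncoupler gene Ucp1 was lower in ERRαγAd-/-, with log2 changes of -6.48 under PBS and -6.03 under CL316,243, as was Cidea (-3.29 and -2.22). The general adipocyte genes Plin1 (0.80 and 0.76) and Lep (0.93 and 1.75) were higher, Adipoq was higher under CL316,243 (1.19), and Fabp4 passed in neither. Higher and lower are used of genes with an adjusted p under 0.05 by limma (Benjamini-Hochberg), and each SE comes from that fit.

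The members differed widely in level per length, and their recovered reads per library ran from 25 to 3389. Among core genes the mean over all libraries ran from 39.7 for Psma5 to 129 for Psmb7. Among regulatory genes it ran from 26.6 for Psmd11, a lid scaffold subunit, to 91.5 for Psmd8, another lid subunit. The activator genes Psme1 and Psme2 reached 104 and 123, within the core range. Levels of the assembly chaperones, which are needed to build the particles and are not part of them, were lower, from 4.91 for Psmd9 to 19.2 for Psmg1. The lowest members were Psme2b at 3.28 and the inhibitor gene Psmf1 at 4.7. By the annotation the members lie on 16 chromosomes, with 9 on chromosome 11 and 5 on chromosome 14, where Psme1 and Psme2 are separated by 5.9 kb. For several members reads may be split with copies elsewhere: the share of 50-base stretches found in another gene was 69.3% for Psme2b, 54.1% for Psmb5, 49.1% for Psma5 and 28.3% for Psme2, so these values are uncertain. Exons of Psmd9 overlap another gene over 25.5% of their length, and whether counting used the strand is not given in the sources used here.

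The comparison of genotypes under CL316,243 asked how loss of both receptors altered the stimulated tissue. Of the 45 members, 20 were lower in ERRαγAd-/- CL316,243 than in WT CL316,243 and 2 were higher, with a median change of -0.24 on the log2 scale; over all genes tested 21.6% were lower and 19.8% higher. On the deposited scale 0 members were lower and 31 were higher (6.62% and 70.5% of all genes), so the direction is relative to the typical gene. The members that fell include catalytic and structural beta subunits, ATPases, lid subunits and activators. Without WT PBS replicate 3, which is not in this contrast but in the shared fit, 23 were lower and 4 higher (23.5% and 21.3% of all genes), and 20 of the 20 lower calls were kept.

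Psmb5 encodes the chymotrypsin-like catalytic subunit. Its level was 131, 144 and 123 in WT CL316,243 and 78.3, 72.3 and 78.8 in ERRαγAd-/- CL316,243. Every knockout library was below every WT library, and the log2 change was -0.79 ± 0.12 (SE; adjusted p = 0.000222), a level 1.73-fold lower. On the deposited scale the change was -0.07 and missed the threshold. Psmb7, which encodes the trypsin-like subunit, was at 173, 182 and 176 in WT and at 117, 104 and 122 in ERRαγAd-/-, without overlap and with a change of -0.63 ± 0.16 (SE; adjusted p = 0.00659). The third catalytic gene, Psmb6 (caspase-like activity), was at 73, 71.9 and 71.4 in WT and at 76.5, 70.3 and 78.9 in ERRαγAd-/-, with overlapping groups and a change of 0.06 ± 0.14 (SE; adjusted p = 0.771). The structural ring gene Psmb3 was at 143, 155 and 143 in WT and at 89.5, 73.7 and 80.2 in ERRαγAd-/-. Its change of -0.86 ± 0.14 (SE; adjusted p = 0.000375) was the largest decrease among the 45 members here, and no library of one genotype reached the other. In the alpha ring, Psma3 changed by -0.62 ± 0.13 (SE; adjusted p = 0.00202) and Psma1 by -0.55 ± 0.14 (SE; adjusted p = 0.00765); 4 of 7 alpha genes and 5 of 7 beta genes fell, whereas 3 of each were higher and 0 lower on the deposited scale.

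Among the regulatory genes 5 of 17 fell, beside the 21.6% of all genes that did, and on the deposited scale 14 were higher and 0 lower, beside 70.5% of all genes higher. Psmd12, a lid subunit, had levels of 42.7, 43.6 and 40.2 in WT CL316,243 and 26.3, 26.4 and 25.7 in ERRαγAd-/- CL316,243. No library of one genotype reached the other, with a change of -0.68 ± 0.08 (SE; adjusted p = 4.11e-05), but on the deposited scale it was 0.03. Psmc4, an ATPase of the base, was at 46.4, 49.5 and 44.9 against 29.9, 25.1 and 25.4, a change of -0.80 ± 0.10 (SE; adjusted p = 6.95e-05). Psmc6, another ATPase, changed by -0.38 ± 0.11 (SE; adjusted p = 0.0134), and Psmd3 and Psmd6 of the lid fell too. Psmd1 (-0.03) and Psmd2 (-0.0038), the ubiquitin-binding scaffold subunits of the base, and Psmd11 (0.01) did not pass, and the deubiquitinase gene Psmd14 was at -0.30 (adjusted p = 0.134).

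Outside the particles 8 of 14 members passed the test in this contrast, 6 lower and 2 higher, beside 21.6% and 19.8% of all genes; on the deposited scale 0 were lower and 11 higher. Psme4, which encodes the large activator PA200, was at 20.7, 25.5 and 22.5 in WT CL316,243 and 12.7, 14.6 and 14.9 in ERRαγAd-/- CL316,243, a change of -0.68 ± 0.09 (SE; adjusted p = 8.99e-05). Psme3, encoding the nuclear activator PA28γ, changed by -0.42 ± 0.09 (SE; adjusted p = 0.00276), and Psme1 (PA28α) by -0.55 ± 0.13 (SE; adjusted p = 0.00424). Psme2, the partner of Psme1 in the same ring, was at -0.003 and missed the threshold; its sign turned on the deposited scale (0.71) and with the length trend removed (0.29). Of the chaperones, Psmg1 changed by -0.44 ± 0.12 (SE; adjusted p = 0.01), Psmg2 by -0.42 ± 0.11 (SE; adjusted p = 0.00967) and Psmd9 by -0.43 ± 0.10 (SE; adjusted p = 0.00478). The 2 higher members were Psmg4 and Psmb10. Psmg4, a core assembly chaperone, was at 5.88, 7.37 and 7.47 in WT and 11.2, 10.3 and 9.91 in ERRαγAd-/-, a change of 0.57 ± 0.13 (SE; adjusted p = 0.00485). Psmb10 changed by 0.35 ± 0.13 (SE; adjusted p = 0.0436), a call lost when any of 10 single libraries was left out.

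**Figure D1:**
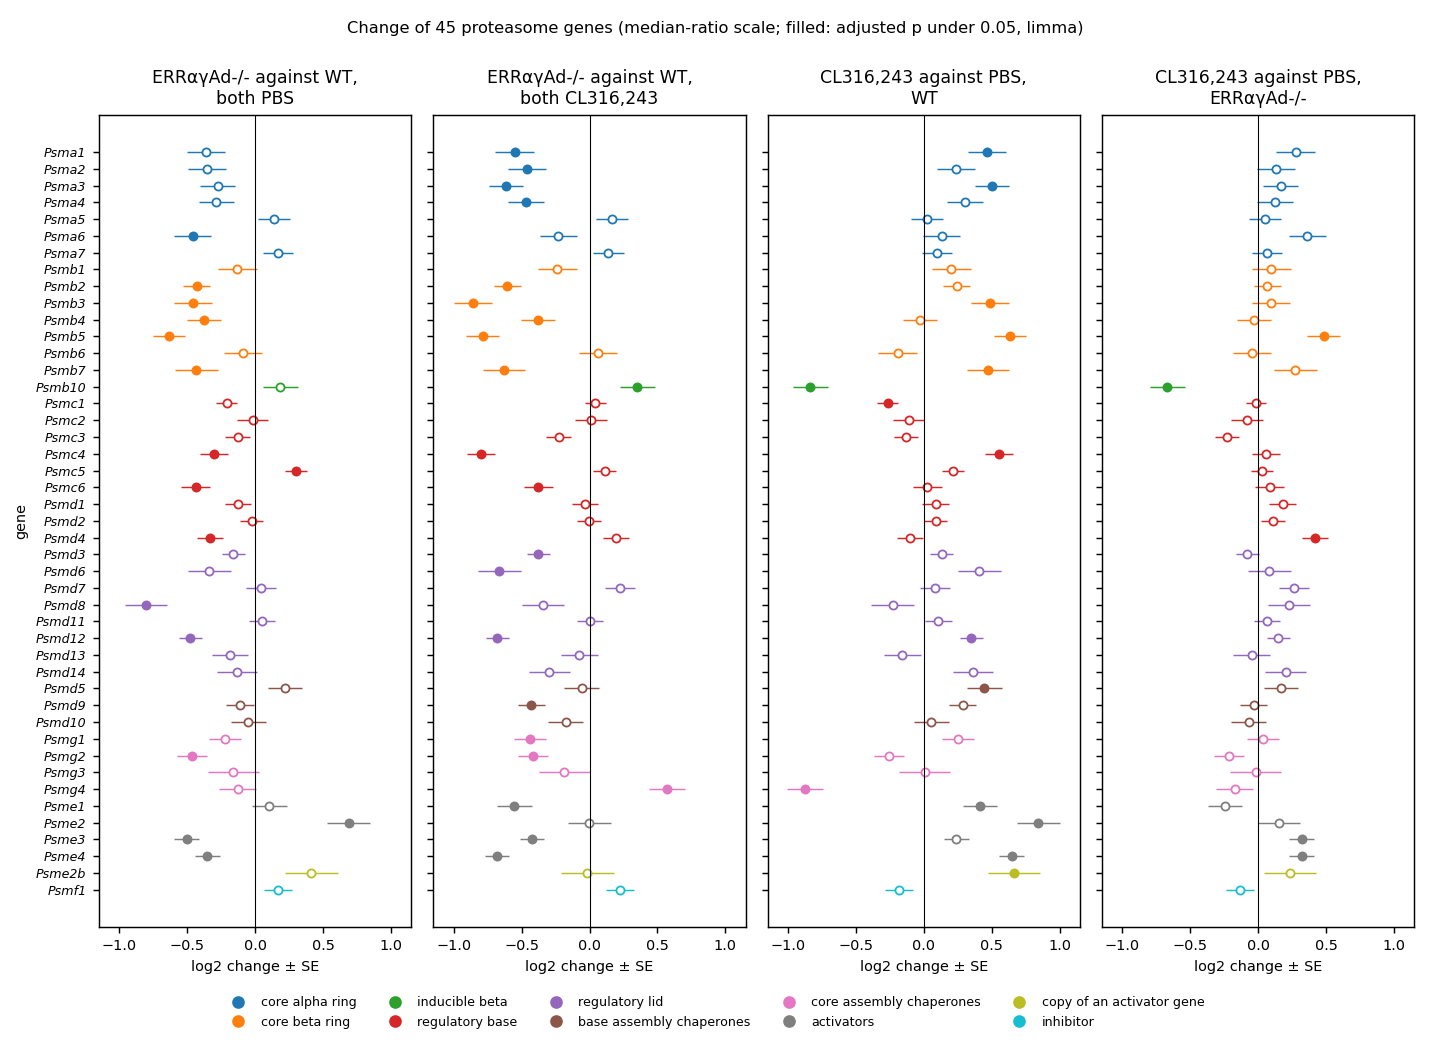
Log2 change with its standard error (x axis) of each of the 45 members (y axis, grouped by role) in 4 comparisons on the median-ratio scale; filled points passed the adjusted p threshold of 0.05. Under CL316,243 the filled points of ERRαγAd-/- against WT lie mostly to the left, 20 lower and 2 higher, where on the deposited scale 0 were lower and 31 higher.

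Promoters of members that fell and members that did not were read from RefSeq (GRCm38.p6) to show the letters at their starts: 38 of 45 members matched a 300-base window from 250 bases before to 50 after the start. The motifs were picked with the results known, and a match describes letters only. The antioxidant response element (TGACNNNGC, either strand) was present in 6 of 38 members, or 15.8%, against 14% of all genes with a window and 17.1% of those in the second table. The half-site AAGGTCA, bound by ERR receptors, occurred in Psma3, Psmb10 and Psmd2 (7.9%, against 5.4% of all genes and 3.9% of those in the second table). CCAAT occurred in 12 (31.6%, against 41.1%). No test was made of these shares. The 4 windows printed with the response element belong to Psmb5 (chr14:54617946-54618245, minus strand), Psmd12 (chr11:107479278-107479577), Psme4 (chr11:30771525-30771824) and Psmb6 (chr11:70525107-70525406), the last a member that did not pass in any comparison on the median-ratio scale. The 2 with the half-site belong to Psma3 (chr12:70974373-70974672) and Psmd2 (chr16:20651402-20651701), and all windows are plus strand except Psmb5. Capitals mark the motif, on either strand.
Psmb5: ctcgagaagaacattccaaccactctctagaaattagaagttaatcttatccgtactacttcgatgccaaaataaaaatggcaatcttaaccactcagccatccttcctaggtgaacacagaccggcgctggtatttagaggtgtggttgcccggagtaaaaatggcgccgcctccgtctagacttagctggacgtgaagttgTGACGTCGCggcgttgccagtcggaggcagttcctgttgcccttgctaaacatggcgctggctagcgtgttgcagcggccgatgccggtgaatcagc
Psmd12: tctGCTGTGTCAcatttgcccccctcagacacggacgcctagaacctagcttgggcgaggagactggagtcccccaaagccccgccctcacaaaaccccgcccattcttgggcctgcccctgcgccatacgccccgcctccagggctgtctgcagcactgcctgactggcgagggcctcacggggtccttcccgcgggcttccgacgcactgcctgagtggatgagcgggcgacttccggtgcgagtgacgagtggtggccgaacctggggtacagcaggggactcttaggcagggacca
Psme4: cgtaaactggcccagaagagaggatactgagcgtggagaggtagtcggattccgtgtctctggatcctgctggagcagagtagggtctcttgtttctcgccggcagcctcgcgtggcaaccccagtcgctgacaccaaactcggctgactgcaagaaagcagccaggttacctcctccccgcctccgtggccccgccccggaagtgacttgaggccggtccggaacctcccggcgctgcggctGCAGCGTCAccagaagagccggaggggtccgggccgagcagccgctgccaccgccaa
Psmb6: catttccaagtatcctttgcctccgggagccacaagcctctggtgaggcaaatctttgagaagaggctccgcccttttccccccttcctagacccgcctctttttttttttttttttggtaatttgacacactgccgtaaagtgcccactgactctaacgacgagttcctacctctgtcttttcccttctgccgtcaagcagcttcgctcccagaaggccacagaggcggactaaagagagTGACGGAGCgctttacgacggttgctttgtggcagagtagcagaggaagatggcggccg
Psma3: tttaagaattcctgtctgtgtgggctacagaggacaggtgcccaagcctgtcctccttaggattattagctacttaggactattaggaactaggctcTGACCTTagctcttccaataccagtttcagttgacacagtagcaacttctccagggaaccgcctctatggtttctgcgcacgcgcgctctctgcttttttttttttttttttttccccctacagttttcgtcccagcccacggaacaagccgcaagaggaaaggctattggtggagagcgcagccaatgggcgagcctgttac
Psmd2: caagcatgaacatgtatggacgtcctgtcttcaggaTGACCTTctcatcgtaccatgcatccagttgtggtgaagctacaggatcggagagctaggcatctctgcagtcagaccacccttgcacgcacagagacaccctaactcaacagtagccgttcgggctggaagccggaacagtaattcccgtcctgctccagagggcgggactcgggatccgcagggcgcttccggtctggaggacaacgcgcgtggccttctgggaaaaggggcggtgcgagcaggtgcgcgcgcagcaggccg
The response element starts 47 bases before the start site in Psmb5 and 7 before it in Psme4, and 247 before it in Psmd12. Psmb6 holds one 9 bases before its start. Psmc6 and Psmd9, whose windows are not printed, hold one 227 and 31 bases before theirs. On the median-ratio scale Psmb5, Psmd12, Psme4, Psmc6 and Psmd9 were lower in ERRαγAd-/- CL316,243 than in WT CL316,243, and Psmb6 passed in no comparison. Of the half-site members, Psma3 fell in ERRαγAd-/- CL316,243, Psmd2 was at -0.0038, and Psmb10 was higher, a call lost when any of 10 single libraries was left out. Whether either motif goes with the changes was not tested.

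Under PBS the same genotype comparison asked about the unstimulated tissue. Here 14 members were lower and 2 higher in ERRαγAd-/- PBS, with a median of -0.16; over all genes 18.4% were lower and 15.8% higher. On the deposited scale 0 were lower and 30 higher (6.22% and 66.3% of all genes). Without WT PBS replicate 3 the counts were 9 lower and 6 higher (17.9% and 15.8% of all genes), and without ERRαγAd-/- PBS replicate 1 the lower count was 8. The 2 genotype comparisons share no library, and 11 members (24.4%) were lower in both and 0 higher in both, against 13.9% and 10.6% of all genes; across the 45 members the changes had a Pearson r of 0.63 and a Spearman rho of 0.70, a description over genes, which are not independent replicates, beside 0.82 and 0.75 over all genes. Skeletal muscle markers were spread widely between libraries: their summed level was 2.23 to 281 in WT PBS, 1.93 to 358 in WT CL316,243, 97.6 to 2927 in ERRαγAd-/- PBS and 195 to 1573 in ERRαγAd-/- CL316,243. None of the 10 markers was at 0 in all libraries of a group, but Ckm and Myh1 were at 0 in WT CL316,243 replicate 2 and Pvalb in WT PBS replicate 2. By the limma test 0 of 10 passed (7 at unadjusted p under 0.05 under PBS, 1 under CL316,243). The part of these muscle markers in the result was not tested. Without both replicates 3 of ERRαγAd-/-, 9 members were lower and 1 higher under PBS, and 16 lower and 1 higher under CL316,243. In bulk tissue, fewer cells of a type and less RNA per cell cannot be told apart.

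Psmd8, a lid subunit, showed the largest decrease under PBS. Its level was 105, 96.1 and 160 in WT PBS and 63.2, 73.2 and 65.1 in ERRαγAd-/- PBS, a change of -0.80 ± 0.16 (SE; adjusted p = 0.0018), with no overlap. Under CL316,243 its change of -0.34 ± 0.16 (SE; adjusted p = 0.0973) did not pass. Psmb5 was at 77, 76.3 and 105 in WT and at 52.9, 57.8 and 53.3 in ERRαγAd-/-, a change of -0.63 ± 0.12 (SE; adjusted p = 0.00145). Psmd12 was at 32.2, 30.5 and 36.6 in WT and at 23.3, 22.3 and 25.1 in ERRαγAd-/-, a change of -0.48 ± 0.08 (SE; adjusted p = 0.000833). Psme3, the nuclear activator gene, was at 24.7, 24 and 24.9 in WT and at 16.4, 16.7 and 18.3 in ERRαγAd-/-, a change of -0.50 ± 0.09 (SE; adjusted p = 0.00111). In these genes every knockout library was below every WT library. Psme4 (-0.35), Psmg2 (-0.46), Psmc6 (-0.44), Psmc4 (-0.31) and Psmb7 (-0.43) also fell. Psmb7 had an adjusted p of 0.0498, which was 0.132 without WT PBS replicate 3, and Psmc4, Psma6, Psmb3 and Psmb4 were lost with it too. In all, the Psmb7 call was lost when any of 10 single libraries was left out, and the Psmc4 call with any of 6. The higher members were Psme2 and Psmc5. Psme2 was at 68, 67.4 and 106 in WT PBS and 119, 139 and 123 in ERRαγAd-/- PBS, a change of 0.69 ± 0.16 (SE; adjusted p = 0.00516), and Psmc5, an ATPase of the base, changed by 0.30 ± 0.08 (SE; adjusted p = 0.0146). Both were also higher on the deposited scale.

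**Figure D2:**
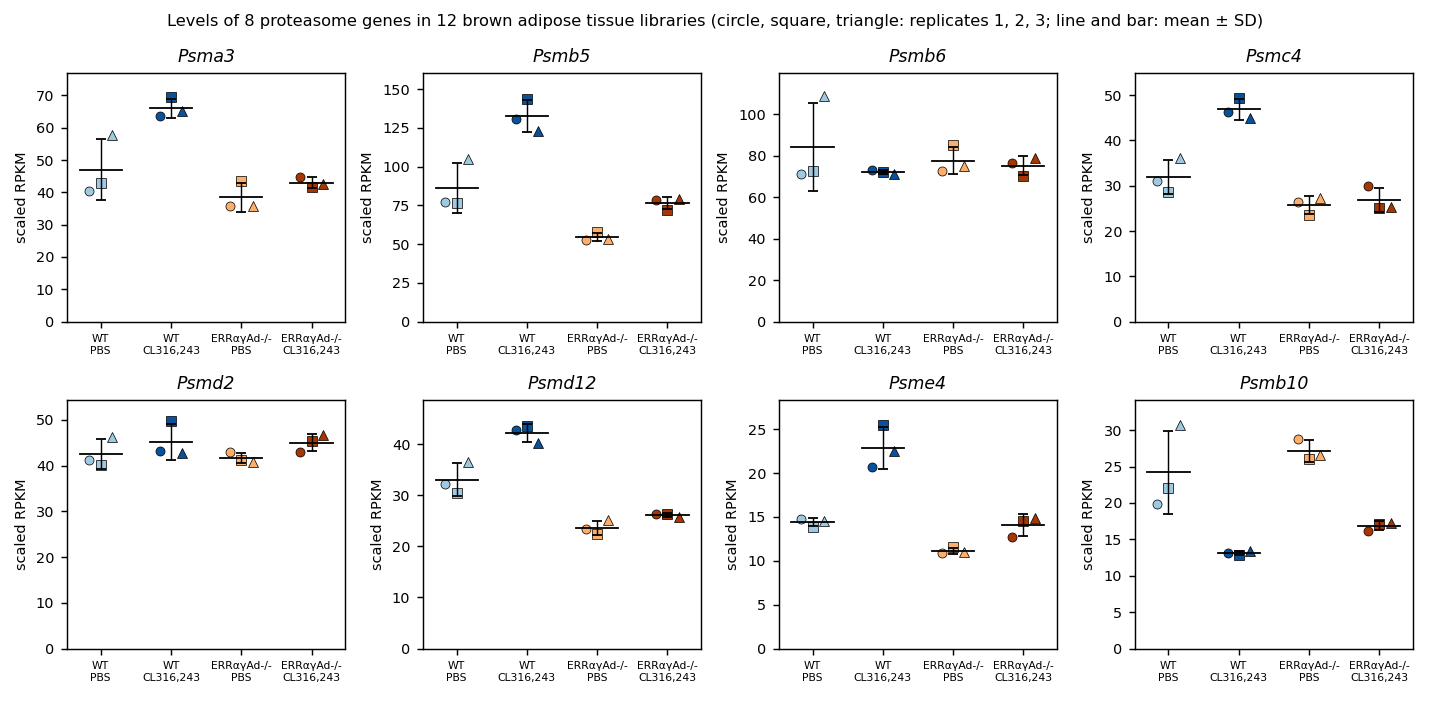
Scaled RPKM (y axes, from 0) of 8 members in the 4 groups (x axes), 1 point per library with mean and SD. Psmb5, Psmd12 and Psme4 are highest in WT CL316,243 and lowest in ERRαγAd-/- PBS, the genotypes overlap for Psmb6 and Psmd2, and Psmb10 is lowest in the CL316,243 groups; WT PBS replicate 3 (triangle) is often the highest of its group.

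To compare particles, the geometric mean of the 14 core and of the 17 regulatory genes was taken per library. The core level was 67.2, 71.5 and 97.8 in WT PBS, 93.7, 95.4 and 89.9 in WT CL316,243, 60.8, 69 and 61.7 in ERRαγAd-/- PBS and 73.5, 66.5 and 72.7 in ERRαγAd-/- CL316,243. Core levels in both ERRαγAd-/- groups lay below every WT CL316,243 library. The regulatory level was 39.9, 37.8 and 48.8 in WT PBS, 44, 45.8 and 43.6 in WT CL316,243, 35.9, 37.2 and 36.8 in ERRαγAd-/- PBS and 39.5, 37.5 and 39.5 in ERRαγAd-/- CL316,243. The log2 ratio of core to regulatory level, which does not depend on library scaling, was 1.09, 1.06 and 1.04 in WT CL316,243 and 0.90, 0.82 and 0.88 in ERRαγAd-/- CL316,243, without overlap. In WT PBS it was 0.75, 0.92 and 1.00 and in ERRαγAd-/- PBS 0.76, 0.89 and 0.75, and these groups overlapped. The median change of the core genes between genotypes was -0.46 under CL316,243 and -0.36 under PBS, against -0.07 and -0.16 for the regulatory genes. In counts, 9 of 14 core and 5 of 17 regulatory genes were lower under CL316,243, beside 21.6% of all genes, and 6 and 5 under PBS, beside 18.4%. On the deposited scale 6 core and 14 regulatory genes were higher under CL316,243, beside 70.5% of all genes. Under PBS 6 and 13 were higher on that scale, beside 66.3%, and 0 were lower in either comparison.

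**Figure D3:**
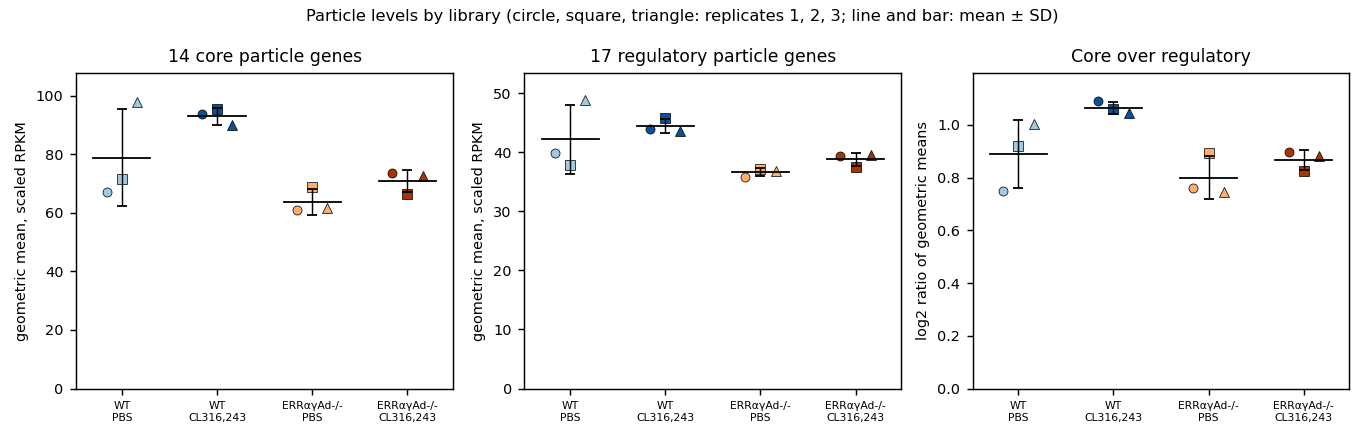
Geometric mean scaled RPKM of the core and of the regulatory genes and the log2 ratio of the 2 (y axes) by group (x axes), 1 point per library with mean and SD. The ratio in WT CL316,243 lies above every ERRαγAd-/- library, and the WT PBS libraries spread from 0.75 to 1.00.

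Gene length moved with this difference. Core genes had a median length of 1037 bases (732 to 2400) and regulatory genes of 1565 (1278 to 3259), as implied by the ratio of RPKM to recovered reads. Over all genes of known length, those under 1000 bases had a median change of -0.26 between genotypes under CL316,243, and those of 3000 or more had 0.04; the 11 members under 1000 bases had -0.46. With the trend on length removed from each library, the core median minus the regulatory median went from -0.39 to -0.16 under CL316,243 and from -0.20 to -0.05 under PBS. The lower calls then numbered 16 under CL316,243, all among the 20, and 6 under PBS, all among the 14, with 10 and 9 higher calls; over all genes of known length 22.1% were then lower and 26% higher under CL316,243, and 18.7% and 21.4% under PBS. Psmd12, Psmc4, Psme4, Psmb5, Psmb3 and Psma3 were among those kept under CL316,243, while Psma2, Psmb4, Psmg1 and Psmg2 were not. The part of length in the remaining difference was not tested.

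**Figure D4:**
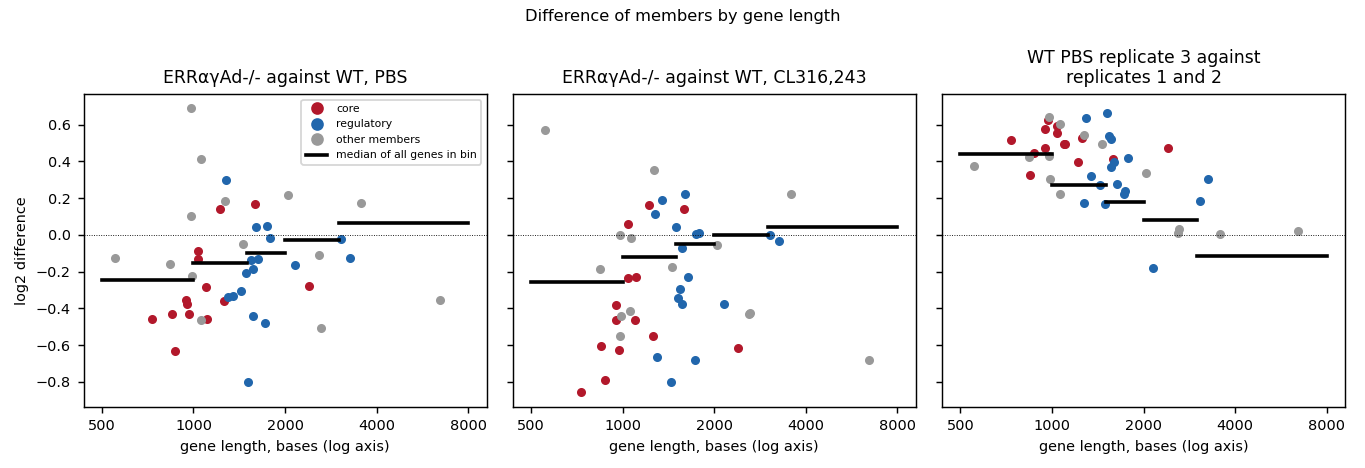
Log2 difference (y axes) of each member against its length in bases (x axes, log scale), coloured by particle, with black bars at the median of all genes in each length bin. Short genes as a whole lie below 0 in ERRαγAd-/- against WT and above 0 in WT PBS replicate 3, and the core genes are mostly short.

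The comparison of CL316,243 with PBS in WT asked what β3-adrenergic stimulation changed. It raised 12 members and lowered 3, with a median of 0.13; over all genes 17.9% were higher and 12.6% lower. On the deposited scale 3 were higher and 15 lower (7.20% and 38.1% of all genes). Without WT PBS replicate 3, 21 were higher and 3 lower (19.4% and 12.5% of all genes); without WT PBS replicate 1 it was 6 higher, without WT PBS replicate 2 it was 7, and without WT CL316,243 replicate 1 it was 7. Psme4 was at 14.8, 13.9 and 14.5 in WT PBS and 20.7, 25.5 and 22.5 in WT CL316,243, a change of 0.65 ± 0.09 (SE; adjusted p = 0.000378). Psmb5 changed by 0.63 ± 0.12 (SE; adjusted p = 0.00213) and Psme2 by 0.84 ± 0.16 (SE; adjusted p = 0.00206), and these 3 were also higher on the deposited scale. Psmc4 rose by 0.55, Psmd12 by 0.35, Psma3 by 0.50, Psma1 by 0.46, Psme1 by 0.41 and Psmb7 by 0.47. The Psmb7 call was lost when any of 7 single libraries was left out, and those of Psma1 and Psme1 with any of 4. The calls of Psmc4 and Psma3 were kept throughout. Psmd14 (0.36), Psmd9 (0.28) and Psmg1 (0.25) did not pass. The 3 that fell, on both scales, were Psmb10, Psmg4 and Psmc1. Psmg4 was at 12, 11.8 and 15.6 in WT PBS and 5.88, 7.37 and 7.47 in WT CL316,243, a change of -0.87 ± 0.13 (SE; adjusted p = 0.000623), and Psmc1 changed by -0.27. Macrophage markers also moved here: 6 of 7 tested (1 of 8 listed was not) were lower, with a sum of 176 to 374 in WT PBS and 99.3 to 131 in WT CL316,243 and none at 0 (7 lower on the deposited scale); their part was not tested. Of other cell types, 0 of 5 endothelial and 0 of 4 tested lymphocyte markers passed in this comparison, and between genotypes under PBS 2 endothelial markers were lower and 3 lymphocyte markers higher (0 and 3 on the deposited scale, where 3 endothelial markers were lower with CL316,243 in WT).

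In ERRαγAd-/- the same stimulation raised 4 members, lowered 1 and had a median of 0.08, against 6.68% higher and 3.62% lower among all genes; on the deposited scale 0 were higher and 4 lower (3.23% and 13.7%). Psmb5 was at 52.9, 57.8 and 53.3 under PBS and 78.3, 72.3 and 78.8 under CL316,243, without overlap and with a change of 0.48 ± 0.12 (SE; adjusted p = 0.026). Psmd4, the ubiquitin receptor of the base, was at 54.8, 57.8 and 61.7 under PBS and 79.7, 77.8 and 75.8 under CL316,243, a change of 0.42 ± 0.10 (SE; adjusted p = 0.0182). Psme3 (0.32) and Psme4 (0.32) passed narrowly and were lost in several settings. The Psmb5 call was lost when any of 5 single libraries was left out, and the Psmd4 call with any of 3. Leaving out 1 library at a time moved the higher count between 0 and 6, and it was 2 or fewer without WT PBS replicate 1 or 2, WT CL316,243 replicate 3 or any single ERRαγAd-/- library. The 2 CL316,243 effects share no library, but no member passed the test of their difference: 0 were higher and 0 lower by limma and by edgeR (8 at an unadjusted p under 0.05), against 1.88% and 2.02% of all genes by limma and 1.46% and 1.87% by edgeR. Nearest was Psmd4, with a difference of 0.52 ± 0.14 (SE; adjusted p = 0.0538), then Psmg4 (0.70), Psme1 (-0.66) and Psmc4 (-0.49). Without WT PBS replicate 3, 1 was higher and 5 lower (2.35% and 4.36% of all genes), without WT PBS replicate 2 the counts were 1 and 0, and on the deposited scale 2 were higher and 0 lower (3.88% and 1.26% of all genes).

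Psmb10 is the inducible counterpart of Psmb7, and its level was 19.8, 22.1 and 30.7 in WT PBS, 13.1, 12.8 and 13.4 in WT CL316,243, 28.8, 26 and 26.6 in ERRαγAd-/- PBS and 16.2, 17.1 and 17.3 in ERRαγAd-/- CL316,243. The CL316,243 libraries were below the PBS libraries in each genotype, with changes of -0.84 ± 0.13 (SE; adjusted p = 0.000592) in WT and -0.67 ± 0.13 (SE; adjusted p = 0.00801) in ERRαγAd-/-, on the deposited scale too. Taken as a percent of Psmb7, which needs no library scaling, Psmb10 was 18.7 ± 1.97 (SD, n = 3) in WT PBS, 7.41 ± 0.316 in WT CL316,243, 28.9 ± 4.26 in ERRαγAd-/- PBS and 14.8 ± 1.38 in ERRαγAd-/- CL316,243. Psmb8 and Psmb9, outside the symbol rule, are the other inducible catalytic subunits. Psmb8 as a percent of Psmb5 was 38.4 ± 3.31, 14.6 ± 2.19, 110 ± 12.5 and 39.6 ± 3.52 in the same order, and Psmb9 as a percent of Psmb6 19.4 ± 0.864, 19.3 ± 3.93, 50.3 ± 9.6 and 24.8 ± 3.39. Psmb8 changed by 0.87 ± 0.16 (SE; adjusted p = 0.00102) and Psmb9 by 1.24 ± 0.19 (SE; adjusted p = 0.0004) between genotypes under PBS. Of the 9 genes of this inducible and peptide-loading list, 9 were higher in ERRαγAd-/- PBS and 6 in ERRαγAd-/- CL316,243. With CL316,243, 4 were lower in WT and 8 in ERRαγAd-/-. Shares of all genes, in that order, were 15.8%, 19.8%, 12.6% and 3.62%. The deposited scale gave 9 in each, beside 66.3%, 70.5%, 38.1% and 13.7% of all genes. Of 12 interferon-stimulated genes, 9 were higher in ERRαγAd-/- PBS and 9 lower with CL316,243 in ERRαγAd-/-, beside 15.8% and 3.62% of all genes. For these 12 the deposited scale gave 12 and 11, beside 66.3% and 13.7% of all genes, and none was at 0 in a group. Of these 12, B2m and Tap1 are also among the 9 peptide-loading genes, and B2m made up most of the sum. The summed level of all 12 was 576 to 1046 in WT PBS, 445 to 529 in WT CL316,243, 1314 to 1596 in ERRαγAd-/- PBS and 760 to 879 in ERRαγAd-/- CL316,243, and that of the 10 without B2m and Tap1 was 90.4 to 153, 80.7 to 95.8, 178 to 227 and 96.3 to 102 in the same order. Their part was not tested.

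Some members passed in none of the 5 comparisons on the median-ratio scale. On the deposited scale Psmd11 (0.63), Psmf1 (0.71), Psmd14 (0.45), Psmd10 (0.52) and Psmd1 (0.46) were higher in ERRαγAd-/- PBS than in WT PBS, beside 66.3% of all genes. The lid deubiquitinase gene Psmd14 was at 32.7, 32.8 and 47.8 in WT PBS, 45.3, 49.9 and 48.7 in WT CL316,243, 32.3, 40.5 and 29.5 in ERRαγAd-/- PBS and 39.4, 36.3 and 41.2 in ERRαγAd-/- CL316,243. The lid scaffold gene Psmd11 was at 24.1, 23.8 and 28.3 in WT PBS, 24.2, 30.4 and 27.6 in WT CL316,243, 26, 26 and 26.6 in ERRαγAd-/- PBS and 26.1, 27.3 and 28.8 in ERRαγAd-/- CL316,243. For Psmd11 all 4 groups overlapped with another, and for Psmd14 the genotypes overlapped under PBS only. Psmf1, which encodes the inhibitor PI31, had means of 4.67 ± 0.724 (SD, n = 3), 4.03 ± 0.0726, 5.29 ± 0.024 and 4.79 ± 0.329. The base chaperone gene Psmd10 had means of 10.4 ± 2.26, 10.6 ± 0.574, 9.85 ± 0.391 and 9.39 ± 0.989, and the scaffold gene Psmd1 of 31.1 ± 4.25, 33 ± 2.04, 28.4 ± 0.787 and 32.2 ± 1.5. On the median-ratio scale the changes of these members between genotypes did not pass, which does not show that the levels were equal. For Psmd14 the change was -0.14 ± 0.15 (SE) under PBS and -0.30 ± 0.15 under CL316,243.

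**Figure D5:**
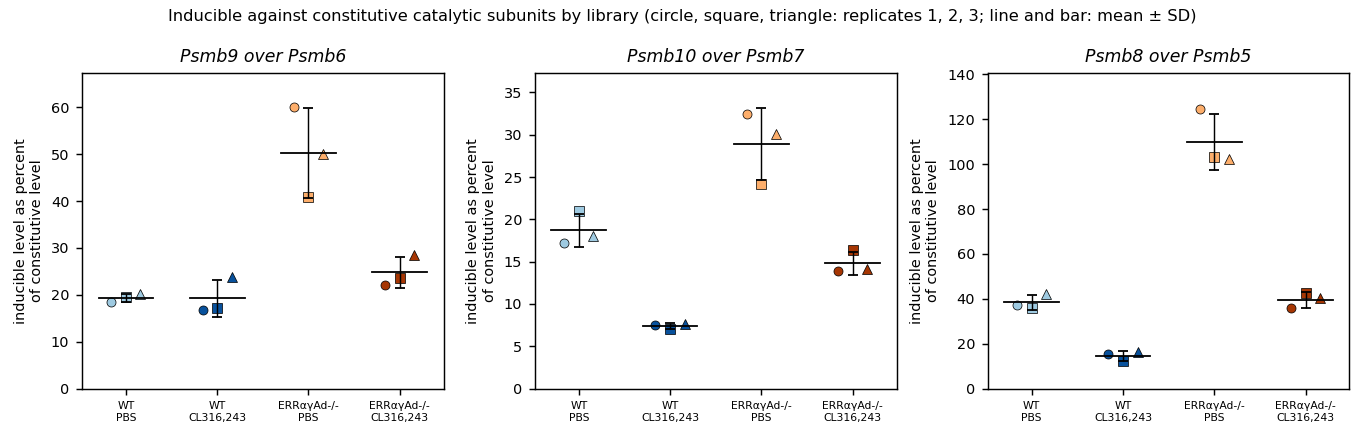
Level of each inducible catalytic subunit as a percent of its constitutive counterpart (y axes, from 0) by group (x axes), 1 point per library with mean and SD. The 3 ratios are highest in ERRαγAd-/- PBS, and those of Psmb10 and Psmb8 are lowest in WT CL316,243.

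Of the genes that work beside the proteasome, the transcription factor genes Nfe2l1 and Nfe2l2 passed in no comparison. The log2 change of Nfe2l1 was -0.06 and 0.00081 between genotypes under PBS and CL316,243 and 0.07 with CL316,243 in WT, that of Nfe2l2 0.03, -0.07 and -0.02, and that of Pomp, which matures the core, 0.17, 0.16 and 0.08, and Pomp did not pass either. Ddi2, the protease that activates NFE2L1, rose by 0.61 with CL316,243 in WT (adjusted p = 0.0137). Shares of all genes for the counts that follow are 15.8% higher and 18.4% lower under PBS and 19.8% and 21.6% under CL316,243, and no list is set apart from them. On the deposited scale the shares are 66.3% higher and 6.22% lower under PBS and 70.5% and 6.62% under CL316,243. In the list of 12 such genes 3 were higher and 2 lower under PBS between genotypes and 2 higher and 0 lower under CL316,243 (9 and 1, then 9 and 0, on the deposited scale). Among 15 genes for proteasome-associated factors, 1 was higher and 5 lower under PBS and 2 higher and 5 lower under CL316,243 (11 and 1, then 12 and 0, on the deposited scale). Usp14, a deubiquitinase of the regulatory particle, changed by -0.80 ± 0.08 (SE; adjusted p = 1.44e-05) and -0.55 ± 0.08 (SE; adjusted p = 0.000212). Uchl5, another, changed by -0.52 and -0.78, and the shuttle gene Ubqln4 by -0.71 and -0.91. Adrm1, the ubiquitin receptor that recruits Uchl5, was at 0.04 and 0.23 and did not pass. Among 12 genes for ubiquitin, E1 and E2 enzymes, 1 was higher and 4 lower under PBS and 2 higher and 4 lower under CL316,243 (9 and 0 in both on the deposited scale), with Ube2k (-0.75) and Uba3 (-0.75) lower under CL316,243.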

How the data were processed

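Each library started from 1 µg of total RNA and the TruSeq total RNA kit, per the labels' protocols. The authors deposited a table of RPKM values for 24452 genes, of which 6296 were 0 throughout, and a second table of 12380 genes whose values are a signal normalised by the authors; those values are whole multiples of 1 read (100% within 0.01), so read counts were recovered. Tools in the submitters' processing notes include STAR 2.3.0, edgeR, bcl2fastq 2.16.0.10 and cutadapt, with builds mm9 and mm10 given without a role; the counting step and annotation were not named in the sources used here. A few cells outside the tables (9) were not used. RPKM values were scaled by median-of-ratios and tested as log2(value + 0.5) with limma 3.58.1 in R 4.3.3 (12249 genes with a mean of at least 0.5; 12 libraries; 8 residual degrees of freedom; Benjamini-Hochberg within each of 5 comparisons; threshold 0.05), so fold changes of low genes are understated. edgeR 4.0.16 with TMM, or with DESeq2 1.42.0 size factors, was run on the recovered reads. The limma fit was tested on simulated data with known changes. Coordinates come from GENCODE M21 (GRCm38). Named genes are, in each comparison, the 4 called members with the smallest p in each direction, a fixed set of subunits of each role, the extremes in level of each particle and the leading members of related lists; Psma2, Psmb4, Psmd3, Psmd5, Psmd6 and Psme2b, and Psmb3, Psma6 and Psmb2 in places, were named after their values were seen. The members and lists were chosen with earlier results of these data known.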

Additional observations from a re-analysis of the deposited data

Results flagged for a closer look

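Mafk, which encodes a small MAF partner of NFE2L1 and NFE2L2, was the one gene of the related lists whose response to CL316,243 differed between genotypes by the test of the difference itself. Its level was 10.9, 13 and 10.8 in WT PBS, 4.5, 3.48 and 4.04 in WT CL316,243, 4.77, 5.9 and 5.33 in ERRαγAd-/- PBS and 3.81, 4.82 and 4.42 in ERRαγAd-/- CL316,243. CL316,243 changed it by -1.42 ± 0.12 (SE; adjusted p = 1.45e-05) in WT and by -0.27 ± 0.12 (SE; adjusted p = 0.201) in ERRαγAd-/- on the log2 scale with limma. The difference of the effects was 1.16 ± 0.17 (SE; adjusted p = 0.00431), and it passed on the deposited scale as well. Under PBS every ERRαγAd-/- library was already below every WT library, and under CL316,243 the genotypes overlapped.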

How the results depend on the processing

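Counts are members higher and lower, in the order ERRαγAd-/- against WT under PBS, the same under CL316,243, CL316,243 in WT, CL316,243 in ERRαγAd-/- and the difference of the CL316,243 effects; the reported counts are 2 and 14, 2 and 20, 12 and 3, 4 and 1, and 0 and 0. A pseudocount of 0.1 gave the same counts, and 1 gave 13 lower under PBS (Psmb7 lost) and 13 higher with CL316,243 in WT (Psmd9 gained). Where a count is left out for a setting, it was within 1.5 times the reported one. The deposited scale gave 30 and 0, 31 and 0, 3 and 15, 0 and 4, and 2 and 0. Quantile normalization gave 6 and 8, 10 and 13, 8 lower with CL316,243 in WT, 2 and 3, and 2 and 2. Fitting only the groups compared gave 1 and 8 under PBS, 7 higher in WT and 2 higher in ERRαγAd-/-. Leaving out both ERRαγAd-/- replicates 3 gave 1 and 9, 1 and 16 under CL316,243, and 0 and 0 with CL316,243 in ERRαγAd-/-. One setting at a time, 1 member was higher under CL316,243 with no filter, with edgeR (TMM or DESeq2 size factors), in the second table and with scaling from the genes of least change; with CL316,243 in ERRαγAd-/-, 2 were higher at a mean RPKM of at least 2, with edgeR TMM and in the second table, and 0 with scaling from the genes of least change. The difference of effects had 1 higher at a mean of at least 2 and 1 lower in the second table. Removing the length trend gave 9 and 6, 10 and 16, 16 and 5, 5 and 3, and 2 and 4. The last 3 kinds of setting (second table, least change, length) were chosen after seeing the data. Leaving out 1 library gave 1 to 6 and 8 to 17, 1 to 4 and 17 to 23, 6 to 21 and 2 to 3, 0 to 6 and 1 to 2, and 0 to 1 and 0 to 5. Of the replicate numbers, 5 of 12 pairs correlated above 0.1 (range -0.219 to 0.373) and 5 of 12 libraries correlated best with their own number. Such correlations cannot show whether replicates of the same number shared handling, and the main fit has no pairing. The replicate block gave 2 and 13, 2 and 20, 12 and 3, 2 and 1, and 0 and 0. On the deposited scale the log2 change turned positive for 32 of the 34 members below 0 under PBS (12 of the 14 lower calls) and for 30 of 33 under CL316,243 (17 of the 20); it turned negative with CL316,243 for 19 of 33 members above 0 in WT and 19 of 30 in ERRαγAd-/-, none of them called higher on the median-ratio scale. Among genes named by the rule and called on either scale, the values that turned were, under PBS, Psmd12 0.10, Psme3 0.074, Psma3 0.31, Psmb6 0.50, Psmb7 0.16, Psmc4 0.28, Psmc6 0.15, Psmd1 0.46, Psmd2 0.56, Psmd9 0.43, Psmd10 0.52, Psmd14 0.45, Psme4 0.22, Psmg1 0.35, Psmg2 0.10; under CL316,243, Psmd12 0.0278, Psme4 0.0167, Psma1 0.16, Psma3 0.0958, Psmb7 0.0859, Psmc6 0.33, Psmd1 0.67, Psmd2 0.71, Psmd9 0.22, Psmd10 0.51, Psmd14 0.41, Psme1 0.16, Psme2 0.71, Psme3 0.28, Psmg1 0.26, Psmg2 0.26; and with CL316,243 in WT, Psmc6 -0.30, Psmd2 -0.23. Psme2 under CL316,243 was 0.40 with quantile normalization and 0.29 without the length trend. Beyond the typical-gene shift of the deposited scale, the cause was not tested. Depth limits the members with few reads, such as Psmg4 (40 to 159 reads).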

Other observations

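Other complexes were read beside the proteasome. In the COP9 signalosome, which shares its architecture with the proteasome lid, Cops3 changed by -0.59 ± 0.11 (SE; adjusted p = 0.00108) between genotypes under CL316,243 and Cops5 by -0.35; of 9 genes, 2 were lower and 0 higher in that comparison by limma (0 lower and 8 higher on the deposited scale), beside 21.6% of all genes lower and 19.8% higher. In the CCT chaperonin, which folds actin and tubulin, 3 of 8 genes were higher and 0 lower under CL316,243 (8 and 0 on the deposited scale), with Cct2 at 0.37, and under PBS 0 were higher and 2 lower (7 and 0 on the deposited scale), with Tcp1 at -0.35, beside 15.8% of all genes higher and 18.4% lower under PBS. Over all genes 70.5% were higher between genotypes on the deposited scale under CL316,243 and 66.3% under PBS. Among 12 tested genes of the p97 unfoldase and its cofactors (of 13 listed), Derl1 rose by 0.66 with CL316,243 in WT. The E2 gene Cdc34 rose by 0.86 ± 0.16 (SE; adjusted p = 0.00178) with CL316,243 in WT and by 0.79 ± 0.16 (SE; adjusted p = 0.00939) in ERRαγAd-/-. Psmc3ip, whose symbol begins like an ATPase subunit but which encodes a recombination factor, is not in the second table. Its level from the RPKM table changed by -1.41 ± 0.22 (SE; adjusted p = 0.000241, limma) between genotypes under CL316,243. It was low, at 2.10, 2.40 and 3.22 in WT CL316,243 and 0.558, 0.537 and 0.853 in ERRαγAd-/- CL316,243, the latter near the 0.5 added before the log.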
